A study of Mus musculus with 4 samples.

Results

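The genes described here encode the subunits of the CCR4-NOT complex, the main cytoplasmic enzyme that shortens mRNA poly(A) tails. The members are Cnot1, Cnot2, Cnot3, Cnot4, Cnot6, Cnot6l, Cnot7, Cnot8, Cnot10 and Cnot11, found by symbol as 10 of the 24421 rows of the count matrix, and 9 of them were among the 9150 genes with enough counts to test. The family was chosen from these data, because the count of Cnot6 is close to lost in shLmna cells. The values of Cnot6 are therefore a description with no test, and the other members entered as subunits of the same complex but were measured in the same contrast, so that none of them is independent evidence about the family.

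All libraries came from B16F10, a mouse melanoma line, transduced with a lentivirus, selected with puromycin and grown in serum-containing medium. In the shControl group (2 libraries) the labels give a control shRNA, and the study's reagent list an empty vector. In the shLmna group (2 libraries) the vector carried an shRNA against exon 8 of Lmna, which encodes lamins A and C, filaments of the nuclear lamina. A general effect of carrying a hairpin is part of this comparison, and whether the lines were clones or pools, and the libraries separate cultures, is not given in the sources used here. P-values thus measure only the spread between these libraries.

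Poly(A) tail shortening is the first and often the slowest step of mRNA decay. After it, the transcript loses its cap and is digested from the 5′ end, or is digested from the 3′ end by the exosome. In the CCR4-NOT complex CNOT1 is the scaffold. A CAF1-type nuclease, CNOT7 or CNOT8, sits on it and in turn binds a CCR4-type nuclease, CNOT6 or CNOT6L, so that a complex holds a nuclease of each type. CNOT2 and CNOT3 form the NOT module, CNOT10 and CNOT11 bind the other end of the scaffold, CNOT9 binds adaptor proteins, and CNOT4 is a ubiquitin ligase that is a loosely attached subunit in mammals. Adaptors such as the TTP family, Pumilio, TNRC6 and TOB proteins bring the complex to chosen mRNAs.

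RNA was profiled by bulk MARS-seq, which primes at the poly(A) tail and counts the 3′ ends of transcripts. Reads were assigned by the authors to the last 1000 bases of each gene and the 100 bases downstream, so the sequences at the 3′ ends of the nuclease transcripts are shown here because they are where these genes were measured. They are the last 30 bases of GENCODE vM21 transcripts (GRCm38, the assembly also called mm10), 5′ to 3′ on the strand of the gene, with the canonical polyadenylation hexamer AATAAA in capitals. For Cnot6 and Cnot6l the farthest end that carries a RefSeq link is followed by the nearer end.
Cnot6 far end, chr11:49671503-49671532, minus strand: ccaaccAATAAAttcaatatctgtttcaaa
Cnot6 near end, chr11:49674713-49674742, minus strand: cagaagacctgatttatgaagttttgtact
Cnot6l far end, chr5:96070333-96070362, minus strand: taggcAATAAAtggccattttgcaaccgca
Cnot6l near end, chr5:96075737-96075766, minus strand: atgttaattatggcacagtaacattggaaa
Cnot7, chr8:40492540-40492569, minus strand: taAATAAAggcttcaaaaatgttttcctat
Cnot8, chr11:58118565-58118594, plus strand: ttgtaaAATAAAgattgctttttaaccatt

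The hexamer was found in the last 30 bases of the far end of all 4 nuclease genes and was not among these letters at the near end of Cnot6 or Cnot6l. It was found, searched on the strand of the transcript only, in 8 of the 10 members (80%) and in 55.7% of the 9100 tested genes with an annotated transcript. The far end of Cnot6 lay 3693 bases after the last coding base and the near end 483 bases after it, 3210 bases apart. GC content of the last 1000 bases was 32.9% at the far end and 40.4% at the near end. Which of the ends the counted reads came from cannot be told from a table with 1 value per gene. The partner nucleases within a type are alike in their coding sequence, with 73.6% identical bases for Cnot6 and Cnot6l over 1648 aligned bases and 72.3% for Cnot7 and Cnot8 over 852. Their last 1000 bases shared 0 stretches of 31 bases within either pair.

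Total counts ranged from 2494880 to 3808843 per library, and 3 counts corresponded to 0.803 to 1.187 CPM (counts scaled to a common library size) across libraries, which covers counting error only. Lmna, examined as a check of the labels, fell from 797 ± 111 CPM (SD, n = 2) in shControl to 130.8 ± 0.0955 in shLmna. This is -2.61 (SE 0.142) as a log2 fold change, and it passed the quasi-likelihood test of edgeR (adjusted p = 7.93e-06). The 7 melanocyte markers summed to 20120 to 24600 CPM in the 4 libraries. The 7 fibroblast markers summed to 10.9 to 17.7 CPM, with Dcn and Lum at 0, and the 7 leukocyte markers to 11.5 to 18.0 CPM, with Ptprc, Cd3e, Itgam and Adgre1 among those at 0. The 5 endothelial markers summed to 0 to 3.21 CPM, with Cdh5 and Kdr at 0.

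Cnot6, a CCR4-type nuclease of the exonuclease-endonuclease-phosphatase fold, gave 232 and 282 counts in the shControl libraries and 6 and 8 counts in the shLmna libraries. The gene lies on the minus strand at chr11:49671503-49712723. Both shLmna libraries stood far below both shControl libraries, and the libraries of each group lay close together. Scaled to library size, Cnot6 stood at 73.7 ± 2.57 CPM (SD, n = 2) in shControl cells and 2.28 ± 0.137 CPM in shLmna cells, so that 3.09% of the control level was left, a 32.4-fold lower value. Exact Poisson 95% intervals of the shLmna libraries ran from 0.871 to 5.165 CPM and from 0.941 to 4.295 CPM and cover counting error only. The fitted log2 fold change was -5.00 (SE 0.248). It was -3.84 when counts were corrected for GC content and -1.07 in the ComBat log2 values, in which the authors had removed a batch effect. Other genes also had smaller values on that scale, with Lmna at -1.54 against -2.61 and Exosc9 at 0.38 against 0.90. The parts of scale and batch in this were not tested. In a bulk sample, fewer cells that express a gene and less RNA per cell cannot be told apart.

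**Figure D1:**
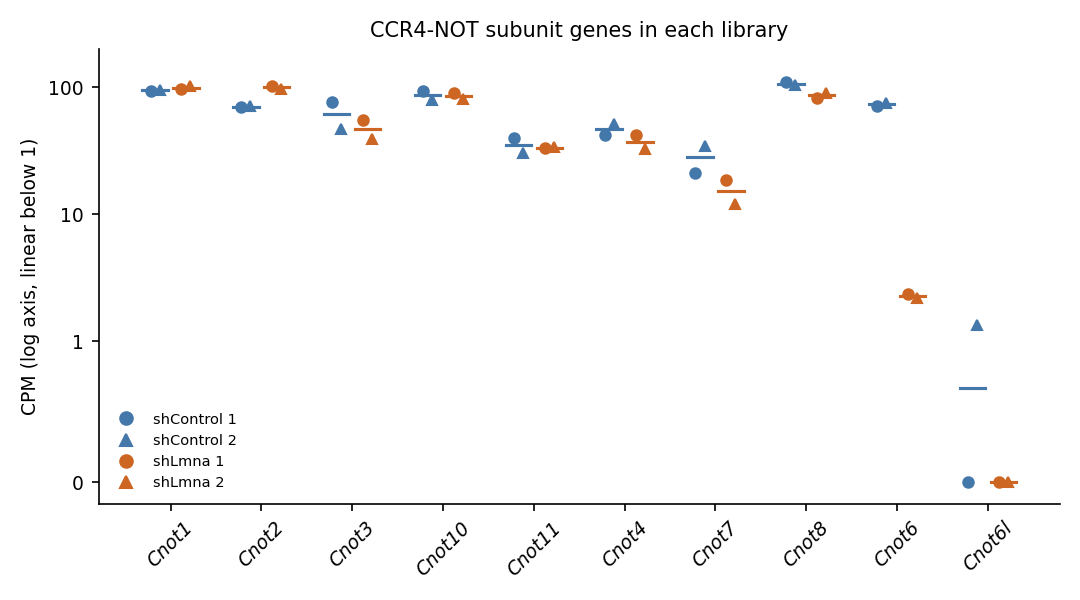
Level of each CCR4-NOT subunit gene in each library, in CPM on an axis that is logarithmic above 1 and linear below it, with shControl libraries in blue, shLmna libraries in orange and bars at the group means (n = 2). Cnot6 goes from 73.7 to 2.28 CPM, while the other tested members stay between 12.0 and 109.6 CPM in every library.

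Cnot6l, the other CCR4-type nuclease (minus strand, chr5:96070333-96164171), was barely detected in these cells. It had 0 and 5 counts in shControl and 0 and 0 counts in shLmna, and was too low to test. The single library with counts, shControl 2, stood at 1.34 CPM, and a count of 0 allows up to 1.459 and 1.005 CPM in shLmna 1 and 2 (upper ends of exact Poisson 95% intervals). Both limits lie far below the shControl level of Cnot6. In shLmna they lie within the counting intervals of Cnot6, which had 6 and 8 counts there against 0 and 0 for Cnot6l. Whether the levels of these genes differ in shLmna was not tested. Counts of both CCR4-type genes together made up 11.6% and 13.0% of the counts of the 10 members in shControl and 0.452% and 0.442% in shLmna.

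Cnot7, a CAF1-type nuclease of the DEDD class (minus strand, chr8:40492540-40515847), was the lowest tested member in shControl. It gave 69 and 130 counts there and 47 and 44 counts in shLmna, or 21.4 and 34.8 CPM against 18.6 and 12.0 CPM. Both shLmna libraries lay below both shControl libraries, and the shControl libraries differed from each other by more than the gap between the groups. The log2 fold change was -0.91 (SE 0.304, 95% interval -1.59 to -0.23), and over all tested genes its edgeR adjusted p was 0.0764. This value rests on the processing. The log2 fold change was -1.22 without shControl 1, -0.52 without shControl 2, -1.23 without shLmna 1 and -0.59 without shLmna 2. With the correction for GC content it was 0.05 with an edgeR adjusted p of 0.923.

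Cnot8, the other CAF1-type nuclease (plus strand, chr11:58104153-58118594), was the most abundant member in shControl cells. It gave 354 and 391 counts in shControl and 209 and 333 counts in shLmna, or 109.6 and 104.7 CPM against 82.7 and 90.7 CPM. The groups did not overlap, yet the log2 fold change of -0.30 (SE 0.130) did not pass the edgeR test after adjustment (adjusted p = 0.153, unadjusted p = 0.0434). Summed over both CAF1-type genes the level was 131.0 and 139.5 CPM in shControl and 101.3 and 102.7 CPM in shLmna. Both shLmna sums lay below both shControl sums. Of the counts of the 9 members without Cnot6, these genes held 23.9% and 27.0% in shControl and 19.4% and 20.9% in shLmna.

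Cnot1, the scaffold on which the rest of the complex is built (minus strand, chr8:95719451-95807464), gave 93.9 and 95.8 CPM in shControl and 96.5 and 102.7 CPM in shLmna. It differed by 0.07 on the log2 scale (SE 0.127, 95% interval -0.21 to 0.36, edgeR adjusted p = 0.752). The groups were close and just did not overlap.

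Cnot2, a subunit of the NOT module (minus strand, chr10:116485161-116581511), was the only one of the 8 tested members besides Cnot6, which is given without a test, to pass the edgeR test. Its 4 libraries gave 225 and 267 counts in shControl and 259 and 360 counts in shLmna, or 69.7 and 71.5 CPM against 102.4 and 98.1 CPM. Both shLmna libraries lay above both shControl libraries, with replicates close together. The gene rose 1.42-fold, a log2 fold change of 0.50 (SE 0.131, adjusted p = 0.0289), which is under the 2-fold size that a call also requires. The test was not passed with DESeq2 (adjusted p = 0.151), without shLmna 1 (0.184) or without shLmna 2 (0.137), while the log2 fold change stayed between 0.21 and 0.55 under all alternatives.

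Cnot3, the partner of Cnot2 in the NOT module (plus strand, chr7:3645268-3661109), gave 247 and 177 counts in shControl and 141 and 143 counts in shLmna. In CPM these were 76.5 and 47.4 against 55.8 and 39.0, so the groups overlapped and the shControl libraries lay far apart. Cnot3 differed by -0.40 on the log2 scale (SE 0.246, edgeR adjusted p = 0.317), by -0.02 without shControl 1 (adjusted p = 0.970) and by -0.72 without shControl 2 (adjusted p = 0.0132), so its value rests on which control library is used. Its counts are less certain than the others, since 47.2% of the 31-base stretches in its last 1000 bases also occur in Gm9207, and exons of Leng1 overlap its end on the opposite strand.

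Cnot10 (minus strand, chr9:114585878-114640184) and Cnot11 (plus strand, chr1:39534992-39546889) bind the N-terminal part of the scaffold. Cnot10 gave 94.5 and 79.0 CPM in shControl and 91.0 and 81.5 CPM in shLmna, a log2 difference of -0.01 (SE 0.146, edgeR adjusted p = 0.975). Cnot11 gave 40.3 and 30.3 CPM in shControl and 33.2 and 34.1 CPM in shLmna, a log2 difference of -0.06 (SE 0.202, adjusted p = 0.873). In both genes the groups overlapped.

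Cnot4, the ubiquitin ligase (minus strand, chr6:35022065-35133724), gave 42.1 and 51.4 CPM in shControl and 41.9 and 33.0 CPM in shLmna. The lower shControl library and the higher shLmna library nearly met. Its log2 difference was -0.33 (SE 0.192, edgeR adjusted p = 0.281). The CNOT9 gene is listed in the matrix under its older symbol Rqcd1 (plus strand, chr1:74506058-74530842) and is no member by symbol. It gave 59.2 and 64.0 CPM in shControl and 76.7 and 63.8 CPM in shLmna, a log2 difference of 0.18 (SE 0.153, adjusted p = 0.467).

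**Figure D2:**
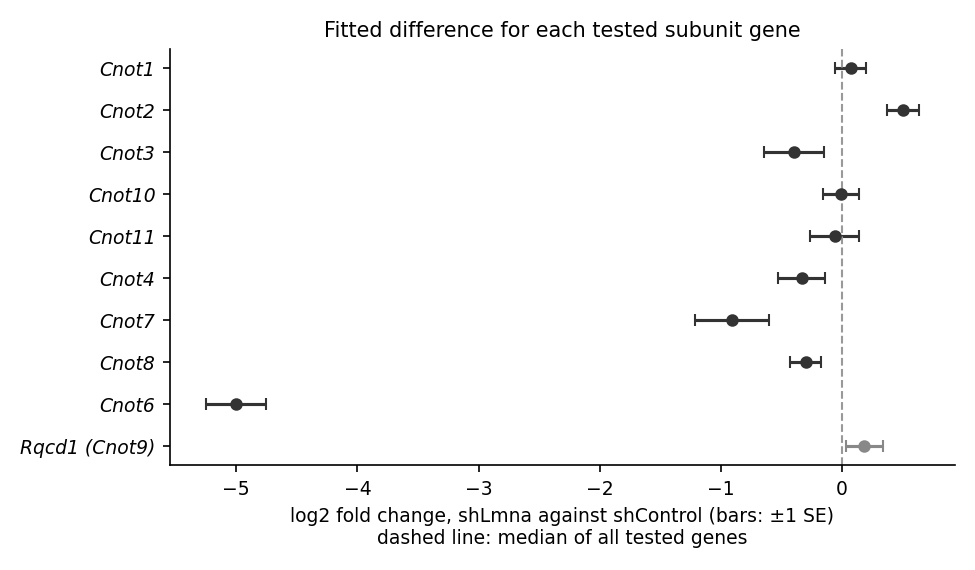
Fitted log2 fold change of shLmna against shControl for the 9 tested members and Rqcd1, with bars of 1 SE and a dashed line at the median of all tested genes. Cnot6 lies at -5.00, and the other members between -0.91 (Cnot7) and 0.50 (Cnot2).

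Of the 8 tested members other than Cnot6, 0 passed lower and 1 passed higher at an edgeR adjusted p under 0.05, against 9.74% lower and 5.48% higher over all 9150 tested genes. At an unadjusted p under 0.05 there were 2 lower (Cnot7 and Cnot8) and 1 higher (Cnot2), and with DESeq2 0 passed in either direction. The shares of all tested genes at that unadjusted level and with DESeq2 are not given here. The unadjusted share cannot be below the 15.2% of tested genes that passed the edgeR test after adjustment. None of these 8 was called under the 3 limits (adjusted p under 0.05, log2 fold change over 1 in size, mean normalized count over 5), where 5.88% of tested genes were called lower and 1.76% higher. Groups did not overlap in 3 of the 8 with shLmna lower (Cnot4, Cnot7, Cnot8) and in 2 with shLmna higher (Cnot1, Cnot2), beside 30.6% and 29.5% of all tested genes. Log2 fold changes were negative in 6 and positive in 2, with a median of -0.18, where the median of all tested genes was -0.00107. With 8 genes, these counts are a description and were not tested against the background.

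Since each gene was counted over a 3′ window of the same size, levels may be set side by side in CPM, but with limits. Cnot2, Cnot4, Cnot6 and Cnot6l have several annotated ends, and 47.2% of the 31-base stretches at the Cnot3 end also occur in Gm9207. Whether GC content of the counted end shifts levels between genes was not tested. In shControl the order of mean CPM was Cnot8, Cnot1, Cnot10, Cnot6, Cnot2, Cnot3, Cnot4, Cnot11, Cnot7 and Cnot6l. Neighbours whose libraries overlapped were Cnot1 with Cnot10, Cnot2 with Cnot3, Cnot3 with Cnot4, and Cnot11 with Cnot7. In shLmna the order was Cnot2, Cnot1, Cnot8, Cnot10, Cnot3, Cnot4, Cnot11, Cnot7, Cnot6 and Cnot6l, so Cnot6 moved from the 4th to the 9th place of 10. Neighbours that overlapped there were Cnot2 with Cnot1, Cnot8 with Cnot10, Cnot3 with Cnot4, and Cnot4 with Cnot11.

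The makeup of the members' counts moved with Cnot6. Summed over the 10 genes the level was 619.8 and 591.7 CPM in shControl and 524.5 and 493.1 CPM in shLmna. Without Cnot6 the sums were 547.9 and 516.2 CPM against 522.1 and 491.0 CPM, and the groups then overlapped. Cnot1, Cnot2 and Cnot3 held 38.7% and 36.3% of the members' counts in shControl and 48.6% in each shLmna library, a share that the loss of Cnot6 from the total raises. Of the counts without Cnot6 they held 43.8% and 41.6% in shControl and 48.8% in each shLmna library. Their summed level was 240.0 and 214.7 CPM in shControl and 254.7 and 239.8 CPM in shLmna, so the groups overlapped. Within this sum the group mean of Cnot2 went from 70.6 CPM in shControl to 100.3 CPM in shLmna. That of Cnot1 went from 94.8 to 99.6 CPM and that of Cnot3 from 61.9 to 47.4 CPM. All these sums are over genes of mRNA counts and say nothing of protein or of assembled complexes.

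GC content of the annotated 3′ end moved with the difference over all tested genes, and the members are spread along it. The bands and the correction use 1 annotated end per gene, which is the far end for Cnot6. The near end of Cnot6, at 40.4%, would lie in the band up to 42%. Annotated ends ranged from 29.5% to 37.6% for Cnot4 and from 36.5% to 42.5% for Cnot2. Of the 333 tested genes with at most 34% GC, the band of Cnot6 (32.9%) and Cnot7 (34.0%), 46.5% were called lower and the median log2 fold change was -1.26. In the band above 34% and up to 38%, which holds Cnot4 (37.6%), 22.3% of 855 genes were called lower. In the band up to 42%, which holds Cnot2 (39.9%), 5.86% of 1417 genes were called lower. Bands above 42% had 1.03% to 2.19% called lower and hold Cnot1 (42.7%), Cnot8 (46.0%), Cnot11 (46.8%), Cnot10 (52.7%) and Cnot3 (57.2%). With the correction for GC content Cnot6 moved from -5.00 to -3.84, Cnot7 moved from -0.91 to 0.05, and Cnot2 moved little, from 0.50 to 0.54. The part of base composition in the fall of Cnot6 was not tested further.

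**Figure D3:**
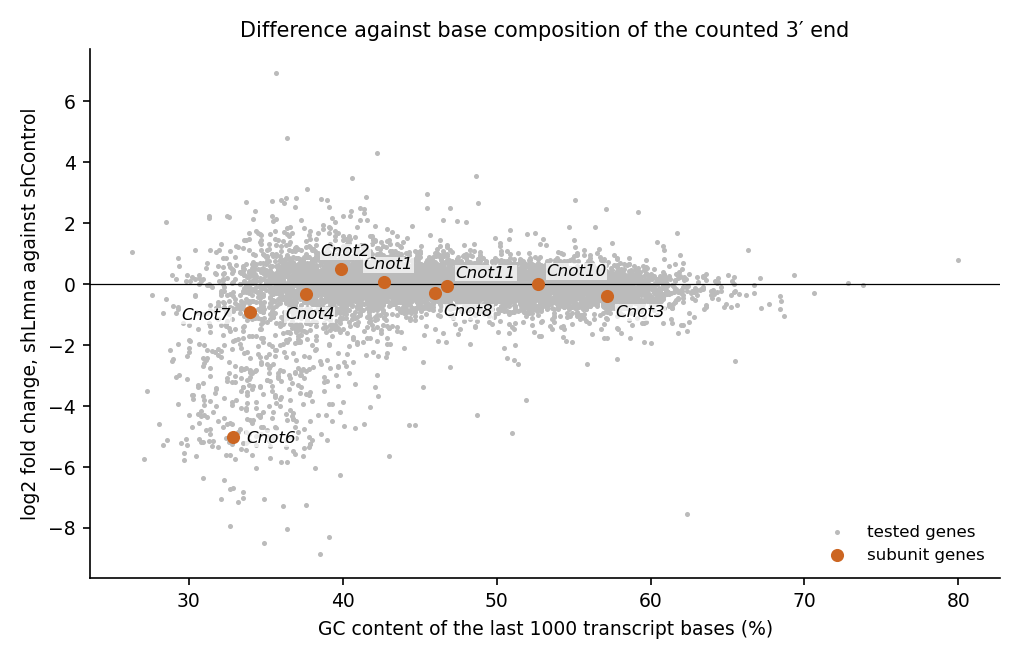
Log2 fold change of shLmna against shControl (vertical axis) and GC content in percent of the last 1000 transcript bases (horizontal axis) for each tested gene in grey, with the tested subunit genes in orange. Genes far below 0 lie mostly at low GC content, where Cnot6 (32.9% at its far end) and Cnot7 (34.0%) are, and Cnot6 lies at -5.00.

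The members' values under all alternatives are plotted with the reported ones. Cnot3, Cnot7 and Cnot11, whose shControl libraries lay apart, also moved most when a library was left out, with ranges of -0.72 to -0.02, -1.23 to -0.52 and -0.26 to 0.16.

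**Figure D4:**
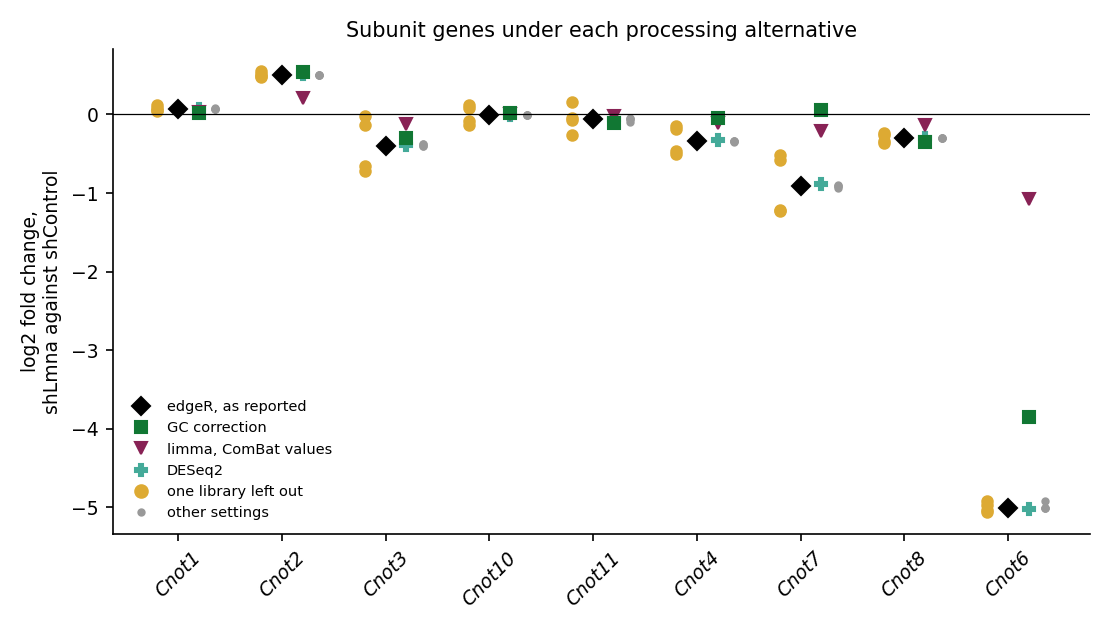
Log2 fold change of shLmna against shControl for each tested member as reported and under 11 processing alternatives. Cnot6 stays the lowest throughout, at -5.05 to -4.91 except with the GC correction (-3.84) and in ComBat values (-1.07), while Cnot7 crosses 0 with the GC correction.

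Genes that act with the complex were examined in 4 lists by membership, which hold 86 genes of the matrix, 69 of them tested. At an edgeR adjusted p under 0.05, 5 fell (7.25%) and 6 rose (8.70%), beside 9.74% and 5.48% of all tested genes, and the median log2 fold change was 0.18. Under the 3 limits 2 were called lower (2.90%) and 1 higher, beside 5.88% called lower and 1.76% called higher over all tested genes. In 22 of the 69 both shLmna libraries lay below both shControl libraries and in 29 they lay above, where 30.6% and 29.5% of all tested genes did so. Each list below holds 15 to 20 tested genes, so its counts are read against the same shares of passing genes (9.74% lower, 5.48% higher) and are descriptions.

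Among 17 tested partners and recruiters of the complex, 2 fell and 2 rose, with a median log2 fold change of -0.32. Zfp36l1, a TTP family protein that binds AU-rich elements and recruits CCR4-NOT, had 200 and 206 counts against 6 and 7, a log2 difference of -4.77 (SE 0.275, edgeR adjusted p = 8.07e-06). Its counted end has a GC content of 31.1%, lower than that of Cnot6, and exons of Gm26669 overlap it on the opposite strand. Its change passed the test under each of the 11 alternatives, but its size moved to -3.19 with the GC correction and to -0.95 on ComBat values. Samd4b, a Smaug family RNA-binding protein, fell by 0.55 on the log2 scale (adjusted p = 0.0137), and did not pass without shLmna 1 (adjusted p = 0.1503) or without shLmna 2 (0.0935). Of the genes that rose, Tnrc6a, the GW182 protein that links microRNA complexes to CCR4-NOT, had 17 and 48 counts against 47 and 98, a log2 fold change of 1.31 (adjusted p = 0.0398), which was 0.84 without shControl 1 and 2.11 without shControl 2. Rc3h2, a Roquin protein that binds stem-loops and recruits the complex, had 88 and 77 counts against 123 and 156, a log2 fold change of 0.93 (adjusted p = 0.0146), which was 1.55 with the GC correction. Tob1, an antiproliferative protein that binds CNOT7 and CNOT8, missed the test, at 44.6 and 50.6 CPM against 17.8 and 34.1 CPM (adjusted p = 0.0598). Pum2, a Pumilio protein, had 3 counts in shControl 1 but 188 in shControl 2 and 199 and 286 in shLmna (adjusted p = 0.185), so that shControl 1 stood apart from the other 3 libraries.

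The other deadenylases and poly(A) binding genes gave 1 passing gene of 15, which was lower. It was Paip2, an inhibitor of poly(A)-binding protein, with 200 and 257 counts against 77 and 147, a log2 difference of -0.88 (SE 0.178, edgeR adjusted p = 0.00975). Without shLmna 1 its adjusted p was 0.1002. The PAN2-PAN3 enzyme, which trims long tails, gave a log2 fold change of 0.04 for Pan2 (adjusted p = 0.932) and of 1.02 for Pan3 (adjusted p = 0.153), the latter on 9 and 10 counts against 17 and 17. Parn, a nuclease of mostly nuclear and maternal poly(A) tails, stood at -0.28 (adjusted p = 0.245). Pabpc1, the main cytoplasmic poly(A)-binding protein, stood at -0.10 with an adjusted p of 0.594.

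Among 20 tested genes of decapping and 5′ decay 1 fell and 3 rose, and the median was 0.33. Lsm14a, a P-body protein, had 318 and 411 counts against 63 and 81, a log2 difference of -2.16 (SE 0.161, edgeR adjusted p = 2.59e-05), and its counted end has a GC content of 35.7%. With the GC correction it stood at -1.57. Its paralog Lsm14b moved the other way, with 143 and 105 counts against 188 and 252 and a log2 fold change of 0.99 (adjusted p = 0.0114). Patl1, a scaffold between decapping factors and CCR4-NOT, rose by a log2 fold change of 0.61 (adjusted p = 0.0428), and Gigyf1, a translation repressor bound by 4EHP, by 0.76 (adjusted p = 0.0338). Without shControl 1 neither passed (adjusted p = 0.0739 and 0.0519), nor did Patl1 with the GC correction (0.0613). Ddx6, the helicase that binds CNOT1 and represses translation, stood at 0.15 with an adjusted p of 0.510.

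Among 17 tested exosome and SKI genes 1 fell and 1 rose, with a median of 0.20. Exosc9, a ring subunit of the exosome, had 205 and 249 counts against 313 and 436, a log2 difference of 0.90 (SE 0.130, edgeR adjusted p = 0.00156). Exons of Ccna2 overlap its counted end on the opposite strand. Wdr61, a subunit of the SKI complex and of the PAF1 transcription complex, had 196 and 257 counts against 76 and 160, a log2 fold change of -0.80 (adjusted p = 0.0223), and did not pass without shLmna 1 (adjusted p = 0.178). Of the genes of the 4 lists, 6 passed higher as reported and 2 with DESeq2, for which the share over all tested genes is not given here. On ComBat values the 11 genes named as passing ranged from -0.95 (Zfp36l1) to 0.38 (Exosc9). Tnrc6a, Rc3h2, Patl1, Gigyf1 and Wdr61 had DESeq2 adjusted p of 0.13, 0.0631, 0.152, 0.176 and 0.0735.

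**Figure D5:**
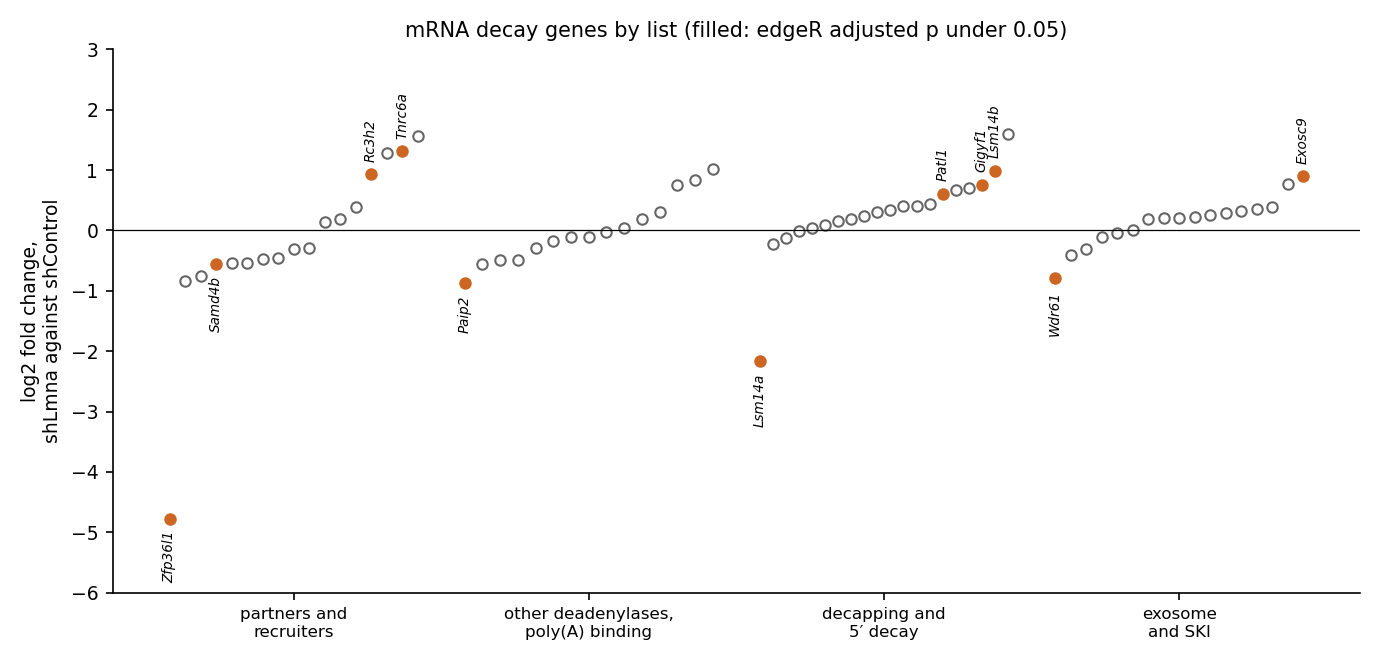
Log2 fold change of shLmna against shControl for each of the 69 tested genes of the 4 mRNA decay lists, ordered by value within a list, with filled points for an edgeR adjusted p under 0.05. Zfp36l1 (-4.77) and Lsm14a (-2.16) stand below the rest, which lie between -0.88 and 1.60.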

How the data were processed

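B16F10 libraries (2 shControl, 2 shLmna, grouped by sample title) were profiled by MARS-seq. According to the study's methods and the submitters' processing notes, the authors trimmed reads with Cutadapt, aligned them to mm10 with STAR 2.4.2a and counted them with HTSeq over the last 1000 bases of RefSeq genes plus 100 bases downstream. Duplicates of a molecular identifier were marked; whether the matrix precedes their removal, and the strand setting, are not given in the sources used here. The authors deposited raw counts per gene symbol, which every test used. A further deposited table held a signal (counts divided by a size factor) with the authors' p-values, adjusted p-values and pass and direction columns for their own comparison, which were not used. Deposited log2 values corrected with ComBat served as an alternative.

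For each gene, edgeR 4.0.16 (R 4.3.3) gave a quasi-likelihood F test of the counts (TMM, filterByExpr, group as the single term, two-sided), adjusted by the Benjamini-Hochberg method over 9150 genes. The limits of a call are those of the study, which used DESeq2. Standard errors come from the F statistic, and CPM use TMM. GC content, 3′ ends and coordinates come from GENCODE vM21 transcripts (GRCm38), with GC content known for 99.45% of tested genes. Replicates differed beyond counting noise (chi-square per degree of freedom 6.96 and 3.91) and were kept as separate samples. Scripts were tested on simulated data. Alternatives were RLE factors, no filter, DESeq2 1.42.0, a replicate block, recovered counts (100% of signal values whole within 0.1 of a count; the matrix exceeds them 1.08 to 1.09-fold), limma 3.58.1 on ComBat values, a GC correction and each library left out.

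Members and gene lists were chosen with earlier results of these data known. Genes named are Lmna, the members with Rqcd1, and list genes with an edgeR adjusted p under 0.05; Tob1, Pum2, Pan2, Pan3, Parn, Pabpc1 and Ddx6 were added after their values were seen.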

Additional observations from a re-analysis of the deposited data

How the results depend on the processing

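Calls over all tested genes numbered 538 lower and 161 higher. Limma on ComBat values gave 27 lower and 2 higher, DESeq2 66 higher and the GC correction 369 higher, so that lower calls were 77% of all calls as reported, 53.7% after the GC correction and 93.1% on ComBat values. The log2 limit of 1 was kept on ComBat values, where fold changes were smaller in size (Lmna -1.54 against -2.61). With a library left out, 387 to 743 were lower and 60 to 232 higher.

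Members and list genes are counted here at an adjusted p under 0.05 alone, and the calls above also needed the other limits. The shares of 9.74% lower and 5.48% higher over all tested genes hold for the reported fit only. Shares under the alternatives are not given here, so the counts below are not read against a background. Of the tested members other than Cnot6, 0 passed lower and 1 higher. Without the filter 1 passed lower (Cnot7), on ComBat values 2 (Cnot3, Cnot8) and with a library left out 0 to 1 (Cnot7 without shControl 1, Cnot3 without shControl 2). With DESeq2 0 passed higher, and with a library left out 0 to 1 (0 without either shLmna library). In the decay lists 5 passed lower and 6 higher, against 14 and 23 on ComBat values, 11 higher without the filter and 2 higher with DESeq2. With a library left out 2 to 6 passed lower (2 without shLmna 1) and 1 to 10 higher (10 without either shControl library, 1 without either shLmna library).

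Replicate numbers come from the sample titles. The deviations of same-numbered libraries from their group means correlated at r = 0.015 across 9150 genes. This value gives no sign of an effect shared by number, but it cannot show whether the libraries were prepared in pairs. A fit with the replicate block gave 1 member passing lower (Cnot7, edgeR adjusted p = 0.00468) and 12 list genes passing higher. The log2 fold change of Cnot7 was -0.90 there and -0.91 as reported. For Lmna the edgeR p was 4.05e-43 there and 6.84e-09 as reported, at -2.60 and -2.61. Counts of passing genes in this fit are thus not comparable with the reported ones.

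Directions turned for Cnot7 with the GC correction (0.054), for Cnot10 on ComBat values (0.00073), with the GC correction (0.018), without shControl 1 (0.12) and without shLmna 2 (0.083), and for Cnot11 without shControl 1 (0.16). With a library left out Cnot10 ranged from -0.14 to 0.12 and Cnot11 from -0.26 to 0.16. The cause was not tested. Over the 21 named genes with a test and 11 alternatives, 194 of 231 values kept their direction and their side of the threshold. The list genes in that count were named because they passed as reported, and some alternatives, such as RLE factors, stay close to the reported fit. Part of the agreement was therefore built in. Lone libraries left in a group are assumed to vary like those of the other group. A library with 0 counts bounds Cnot6l only to about 1 CPM.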
